A study of Saccharomyces cerevisiae with 18 samples.

Results

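The genes described here code for the proteins of the mitochondrial ribosome of Saccharomyces cerevisiae. They were chosen by name alone: every ORF of the deposited table whose standard name in annotation R64 begins with MRPL or MRPS, or with MRP or RSM followed by a digit. This rule found 67 of the 6650 ORFs in the table, 34 named MRPL and 33 with another of these names. All 67 had a value in all 6 columns of the table, as did 4956 ORFs in total. The rule uses names and no expression value, although it was set with earlier results of these data known.

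All strains were derived from BY4741, a haploid laboratory strain, and were grown in YP medium with xylulose, a pentose sugar, from an initial OD of 0.1 until log phase. There were 18 libraries, 3 in each of 6 groups. In 3 of the groups RXT3 was deleted, replaced by the allele of strain T73 or replaced by that of strain CLIB215, and in the other 3 groups PHO23 was edited in the same 3 ways. No group with both genes unmodified is part of the comparisons, and the labels do not say whether the 3 libraries of a group came from separate cultures or clones. The table holds 1 pooled column per group, so no replicate error can be given for any value and no test between strains was possible. Values are centred for each ORF on a log scale that is read here as log2, and the base is not stated. A value therefore does not give a gene's expression level. Nor does its sign give a gene's place around the middle of these 6 columns. SOV1 was negative in all 6 columns and PET54 positive in all 6. The reference of the centring is thus unknown, and counts of negative values within a column are given only beside those of all ORFs. Strains are compared by differences between columns.

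The names of 3 columns are uncertain. Columns are named here by the sample titles, but the genotype field names the column titled RXT3 T73 as the PHO23 deletion, the column titled RXT3 CLIB215 as RXT3 T73, and the column titled PHO23 deleted as RXT3 CLIB215. PHO23 itself had no value in the column titled PHO23 deleted and −0.07 in the column titled RXT3 T73. RXT3 had −0.05 in the column labelled RXT3 deleted, which is not its lowest value, so its deletion was not visible there. The names of the columns RXT3 deleted, PHO23 T73 and PHO23 CLIB215 are the same in both fields. Depth per library is unknown.

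Mitochondrial ribosomes make the few proteins that the mitochondrial genome encodes, most of them core subunits of the respiratory chain and of ATP synthase. Their own proteins are almost all encoded in the nucleus, made in the cytosol and imported, and are needed for growth on carbon sources that must be respired. The large subunit is called 54S and the small subunit 37S. Proteins with the prefixes uL and uS have counterparts in all ribosomes, those with bL and bS in bacterial ribosomes, and those with mL and mS occur in mitochondrial ribosomes. Pho23 and Rxt3 belong to Rpd3L, a histone deacetylase complex that acts at many promoters. Transcripts of mitochondrial ribosomal proteins are the classical targets of Puf3, an RNA-binding protein that recognises a short element downstream of the stop codon.

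By the RefSeq product names, 38 of the 67 genes code for 54S proteins, namely the 34 MRPL genes with MRP7, MRP20, MRP35 and MRP49. Another 27 code for 37S proteins. The remaining 2 are not annotated as ribosomal proteins: RSM22 is a tRNA methyltransferase by its product name, and MRP8 has no function in it. Of the 65 ribosomal proteins, 27 belong to universal families, 14 to bacterial families and 24 to mitochondrial families. The genes lie on 14 chromosomes, with 12 on chromosome IV, 10 on XIV, 8 on XI and none on I or VI. MRPL44 is the 1 member whose coding region has more than 1 exon.

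The Puf3 element, searched as TGTANATA on the gene's strand within 200 bases after the stop codon of build R64, was found at 65 of the 67 genes, or 97%. It was found at 716 of the 4787 other nuclear protein-coding genes with 6 values, or 15%, and at 16.1% of all 4854 such genes, members included. All 34 MRPL genes and 31 of the other 33 carried it, and the 2 without it were RSM22 and MRP8, the same 2 that are not annotated as ribosomal proteins. The sites below are those of the genes with the largest differences or the widest or narrowest range in the expression data. Capitals mark the 8 bases of the element, and each stretch is printed 5′ to 3′ on the gene's strand.
RSM25, chrIX:187937-187958, minus strand: accaaccTGTATATAattaaaa
MRPL38, chrXI:131139-131160, plus strand: aaccaccTGTATATAttgctta
MRP20, chrIV:1278503-1278524, plus strand: tcacactTGTATATAcggagca
MRP35, chrXIV:397925-397946, minus strand: gtcttcaTGTATATAaataagt
MRPS8, chrXIII:572765-572786, plus strand: cggaccaTGTAAATAataatat
MRPS9, chrII:536228-536249, plus strand: ttattccTGTAAATAaagttat
MRP2, chrXVI:876218-876239, minus strand: acgcactTGTAAATAaatacat
MRP17, chrXI:437042-437063, minus strand: aaacacaTGTAAATAcatacat
MRP51, chrXVI:327701-327722, plus strand: agagttcTGTAAATAaataaag
MRPL28, first site, chrIV:1386541-1386562, plus strand: ctcctgcTGTAAATAactgatg
MRPL28, second site, chrIV:1386597-1386618, plus strand: aattataTGTACATAgacatat

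The first element of a gene began 8 to 139 bases after the stop codon, with a median of 51 bases, and 13 genes held 2 or more elements, giving 79 in all. The base that the search left free, the fifth, was A in 36 elements, T in 25, C in 17 and G in 1, the first element of MRPL3. A stricter form of the element, with a C 2 bases before it, stood at 52 of the 67 genes (77.6%) and at 188 of the 4787 others (3.93%). On the opposite strand of the same windows the element occurred at 13 members (19.4%) and 14.5% of other genes, and within 200 bases before the start codon at 6 members (8.96%) and 5.1% of others. A match is a description of the sequence and does not show binding.

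**Figure D1:**
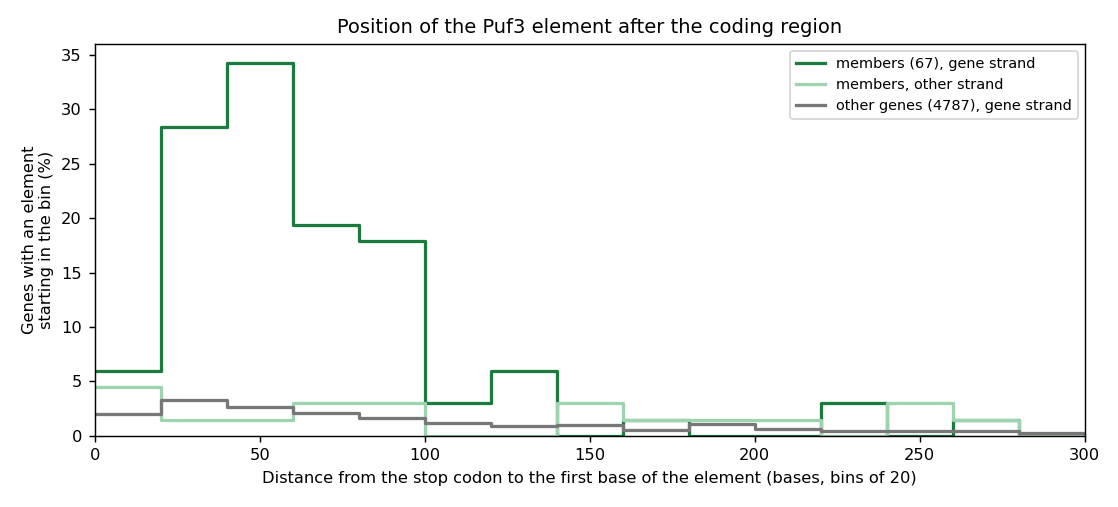
Share of genes (%) with a Puf3 element starting in each bin of 20 bases, plotted against the distance from the stop codon (bases). Members on the gene's strand (dark green) peak at 34.3% between 41 and 60 bases, while members on the other strand (light green) and the 4787 other genes (grey) stay below 5% in every bin.

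Promoter windows of 300 bases before the start codon, searched on both strands, gave no such contrast. AATTTT occurred at 27 of 67 members (40.3%) and at 55.6% of all 4854 genes. CCAAT, the core of the site of the Hap complex that activates respiratory genes, occurred at 25 members (37.3%) and at 43% of all genes. No match in these windows says only that the letters are not there.

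The column labelled PHO23 deleted stood lowest for these genes. Their median there was −0.18, against 0.01 over all 4956 ORFs, and 51 of 67 (76.1%) lay below 0 against 48.7% of all ORFs. In the PHO23 CLIB215 column the median was −0.13 against −0.02, with 43 members (64.2%) below 0 against 51.8%. In the PHO23 T73 column the order was the opposite: the median was 0.10 against 0.05, and 20 members (29.9%) lay below 0 against 43.2%. These were bulk cultures, so less RNA per cell and fewer cells expressing a gene cannot be told apart.

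In the 3 RXT3 columns the medians of the members stayed close to those of all ORFs. They were 0.02 in the column labelled RXT3 deleted, 0.01 in RXT3 T73 and 0.06 in RXT3 CLIB215, beside 0.04, 0.04 and 0.02 over all ORFs. PHO23 deleted was the lowest column for 19 members and PHO23 CLIB215 for 17, and PHO23 T73 was the highest for 18. The share with PHO23 deleted or PHO23 CLIB215 as the lowest column was 28.4% and 25.4% of members, against 21.2% and 23.5% of all ORFs, whose values were also more spread in these 2 columns (SD over ORFs 0.421 and 0.422, against 0.282 to 0.319 elsewhere). PHO23 T73 was the highest column for 26.9% of members and 16.7% of all ORFs. These shares differed by class. PHO23 deleted was lowest for 17.6% of MRPL genes and 39.4% of the other members, and PHO23 CLIB215 for 23.5% and 27.3%. PHO23 T73 was highest for 17.6% of MRPL genes and 36.4% of the others.

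**Figure D2:**
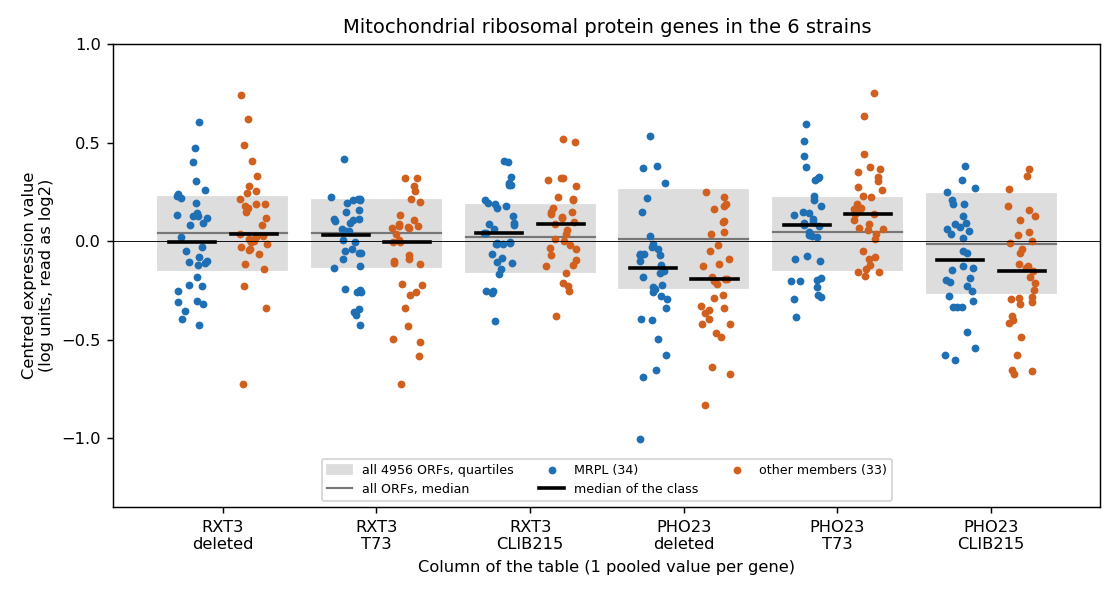
Centred value (log units, read as log2) of each member in each of the 6 columns, with MRPL genes in blue and the other members in orange. Black bars are class medians, and grey boxes and lines are the quartiles and median of all 4956 ORFs. Both classes sit lowest in the PHO23 deleted column (medians −0.14 and −0.19) and highest in PHO23 T73 (0.08 and 0.14).

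Between the 2 natural alleles of PHO23, the median difference was higher in the members other than MRPL than in MRPL genes. Single differences of at least 0.5 unit were found in both classes. The difference PHO23 T73 minus PHO23 CLIB215 had a median of 0.24 over the 67 members, against 0.06 over all ORFs. The 33 members not named MRPL had a median of 0.32, with 24 above 0 and 9 below. The 34 MRPL genes had a median of 0.03, with 17 above and 17 below. In all, 41 of 67 members were above 0, where 54.6% of all ORFs were. Sorting the members by RefSeq product gave 0.30 for the 27 37S genes, of which 20 were above 0, and 0.03 for the 38 54S genes, of which 19 were. These 2 columns have the same names in both label fields. By a bound of 0.5 unit, 12 MRPL genes and 9 of the others were higher with T73, 21 of 67 members where 19.1% of all ORFs were. The difference between the classes has no test, and the upper quartiles of both classes were close, at 0.54 for MRPL and 0.56 for the others.

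Only 2 members were at least 1 unit higher in PHO23 T73, where 4.44% of all ORFs were, and none was lower by as much, where 4.36% were. Neither is an MRPL gene. MRP35, the large-subunit protein bL35m, had 0.64 in PHO23 T73 and −0.42 in PHO23 CLIB215, a difference of 1.05. RSM22, the methyltransferase needed for the small subunit, had 0.75 and −0.28, a difference of 1.03. MRP17, the small-subunit protein bS6m, came next with 0.31 and −0.67, a difference of 0.98. At the other end, MRPL15 (mL57) had −0.38 and 0.31, a difference of −0.69. MRPL13 (mL50) differed by −0.48 and MRP2 (uS14m) by −0.46. When the 12 mitochondrial ribosomal proteins with other names were added and RSM22 and MRP8 left out, the median of 0.24 became 0.14, and with every column centred and scaled to 1 spread it became 0.12.

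The column labelled PHO23 deleted, set against PHO23 T73, showed lower values for both classes. The median of PHO23 deleted minus PHO23 T73 was −0.27 over the members and −0.04 over all ORFs, and 49 of 67 members were below 0, where 53.1% of all ORFs were. MRPL genes had a median of −0.27, with 21 of 34 below 0, and the others −0.29, with 28 of 33 below 0. The upper quartile was 0.11 for MRPL genes and −0.13 for the others, and 13 MRPL genes and 5 of the others were above 0. This comparison shares the PHO23 T73 column with the previous one. Under the names of the genotype field, the comparison so called had a median of −0.11.

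At least 1 unit lower were 3 members, where 3.95% of all ORFs were, and none was higher by as much, where 4.52% were. MRP20 codes for uL23m, which in all ribosomes sits at the exit of the peptide tunnel. Its values were 0.28 in the column labelled RXT3 deleted, 0.32 in RXT3 T73, 0.14 in RXT3 CLIB215, −0.83 in PHO23 deleted, 0.32 in PHO23 T73 and −0.13 in PHO23 CLIB215. The PHO23 deleted column was thus far below the other 5, and lay 1.16 below PHO23 T73. MRPL38 codes for uL14m, at the interface between the subunits. Its values were −0.30, 0.11 and 0.13 in the RXT3 columns in the same order, and −1.003, 0.15 and −0.13 in the PHO23 columns. Here too PHO23 deleted was lowest by a wide margin, at 1.15 below PHO23 T73. MRPS8 codes for the rRNA-binding small-subunit protein uS8m. It had 0.01, −0.34 and −0.21 in the RXT3 columns and −0.64, 0.37 and 0.33 in the PHO23 columns, so PHO23 deleted lay 1.01 below PHO23 T73 and both natural PHO23 alleles lay above all RXT3 columns. On the other side of 0 the furthest were MRPL28 (mL40) at 0.46, MRP13 (mS44) at 0.34 and MRP4 (uS2m) at 0.32.

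**Figure D3:**
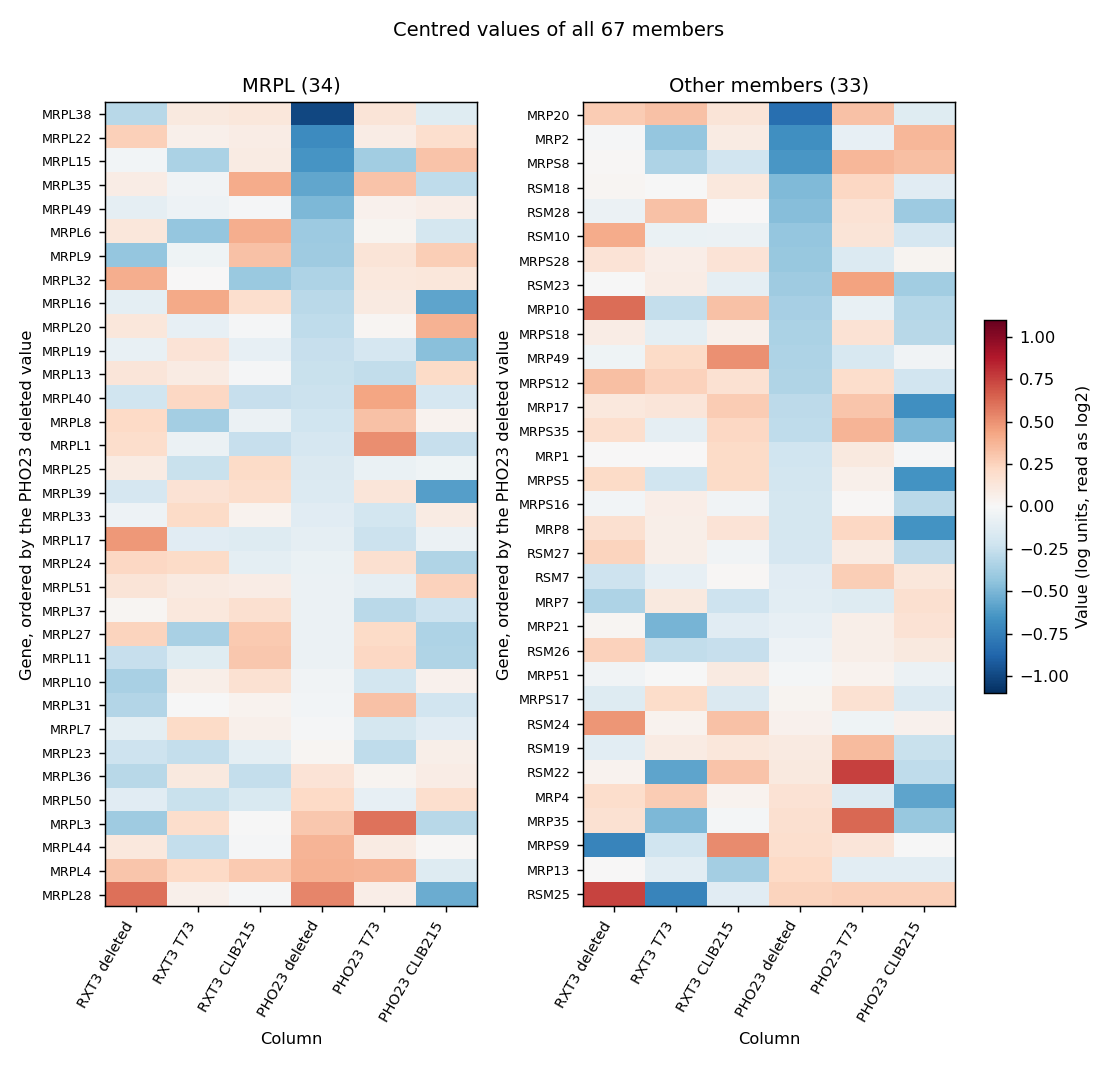
Centred values (colour, log units read as log2) of all 67 members in the 6 columns, MRPL genes on the left and the other members on the right, ordered from the lowest to the highest value in the PHO23 deleted column. The PHO23 deleted column is below 0 for 27 of 34 MRPL genes and 24 of the 33 others, and the genes at its lower end, such as MRPL38 and MRP20, have no equally low value in another column.

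Against PHO23 CLIB215 the PHO23 deleted column showed little difference for the group. The median was −0.04 over the members and 0.02 over all ORFs, with 36 of 67 members below 0, where 48.6% of all ORFs were, and medians of −0.04 for MRPL and −0.02 for the others. Single genes still differed. MRP2, the small-subunit protein uS14m, was the 1 member at least 1 unit lower, where 1.25% of all ORFs were. Its values were −0.02, −0.43 and 0.09 in the RXT3 columns (deleted, T73, CLIB215) and −0.67, −0.09 and 0.37 in the PHO23 columns, so PHO23 deleted lay 1.04 below PHO23 CLIB215. MRPL28 was the 1 member at least 1 unit higher, where 1.96% of all ORFs were. It had 0.60, 0.05 and −0.01 in the RXT3 columns and 0.54, 0.08 and −0.54 in the PHO23 columns, so the 2 columns labelled as deletions were its highest and PHO23 deleted lay 1.08 above PHO23 CLIB215. MRPS8 at −0.97, MRPL15 at −0.96, MRP4 at 0.74 and MRPL3 (mL44) at 0.60 followed. Under the genotype field's names the median of this comparison was 0.06.

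By title, the member median between the RXT3 alleles was closer to 0 than that between the PHO23 alleles. All ORFs also differed less between the RXT3 alleles (SD over ORFs 0.399, against 0.590 between the PHO23 alleles). With columns centred and scaled, the member medians were similar in size, at −0.11 for RXT3 and 0.12 for PHO23. RXT3 T73 minus RXT3 CLIB215 had a median of −0.07 over the members and 0.02 over all ORFs, with 43 of 67 members below 0, where 48.4% of all ORFs were. MRPL genes had a median of −0.04 and the others −0.11. None of the 67 differed by 1 unit in either direction, where 1.37% of all ORFs were that much higher and 0.827% that much lower. RSM22 was furthest below at −0.90, followed by MRPL6 (uL6m) at −0.83 and MRPS9 (uS9m) at −0.74. MRPL40 (uL24m) was furthest above at 0.48, followed by MRPL32 at 0.41 and MRPL36 at 0.37. MRPL32 codes for bL32m, whose maturation by a protease of the mitochondrial inner membrane precedes its assembly into the large subunit. Both names in this comparison change under the genotype field, and the comparison of that name then had a median of 0.23.

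With columns named by title, the column labelled RXT3 deleted had member medians close to 0 against both RXT3 alleles. Against RXT3 T73 the median was 0.04 over the members and 0.01 over all ORFs, and 38 of 67 members were above 0, where 51.1% of all ORFs were. MRPL genes had 0.04 and the others 0.07. RSM25 was the 1 member at least 1 unit higher, where 1.21% of all ORFs were, and none was that much lower, where 1.67% were. RSM25 codes for the small-subunit protein mS23. It had 0.74 in the column labelled RXT3 deleted, −0.72 in RXT3 T73 and −0.13 in RXT3 CLIB215, and 0.25, 0.26 and 0.26 in the PHO23 columns. Its 3 PHO23 values were almost equal, while its RXT3 columns held both its highest and its lowest value, 1.47 apart, the widest range of any member. MRP10, a small-subunit protein (mS37) with the cysteine motif of intermembrane-space proteins, came next at 0.88, and MRP35 followed at 0.66. MRPL3 at −0.59, MRPL16 (uL16m) at −0.52 and MRPS9 at −0.50 were the lowest.

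Against RXT3 CLIB215 the column labelled RXT3 deleted had a median of 0.00 over the members and 0.02 over all ORFs. Of the 67 members 34 were above 0, where 53% of all ORFs were, and the medians were −0.07 for MRPL and 0.02 for the others. MRPS9 was the 1 member at least 1 unit lower, where 1.33% of all ORFs were, and none was that much higher, where 0.989% were. The bacterial counterpart of MRPS9 contacts the tRNA in the peptidyl site. MRPS9 had −0.72, −0.22 and 0.52 in the RXT3 columns (deleted, T73, CLIB215) and 0.19, 0.14 and 0.00 in the PHO23 columns. Its lowest and highest values were again both in RXT3 columns, 1.24 apart. MRPL9 (uL3m) at −0.75 and MRPL11 (uL10m, of the stalk) at −0.55 followed, and at the upper end stood RSM25 at 0.87, MRPL32 at 0.81 and MRPL28 at 0.62. Under the genotype field's names the median of RXT3 deleted minus RXT3 CLIB215 was 0.29 and that of RXT3 deleted minus RXT3 T73 was 0.0018. By title, the median against RXT3 CLIB215 became −0.02029 with each column centred.

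**Figure D4:**
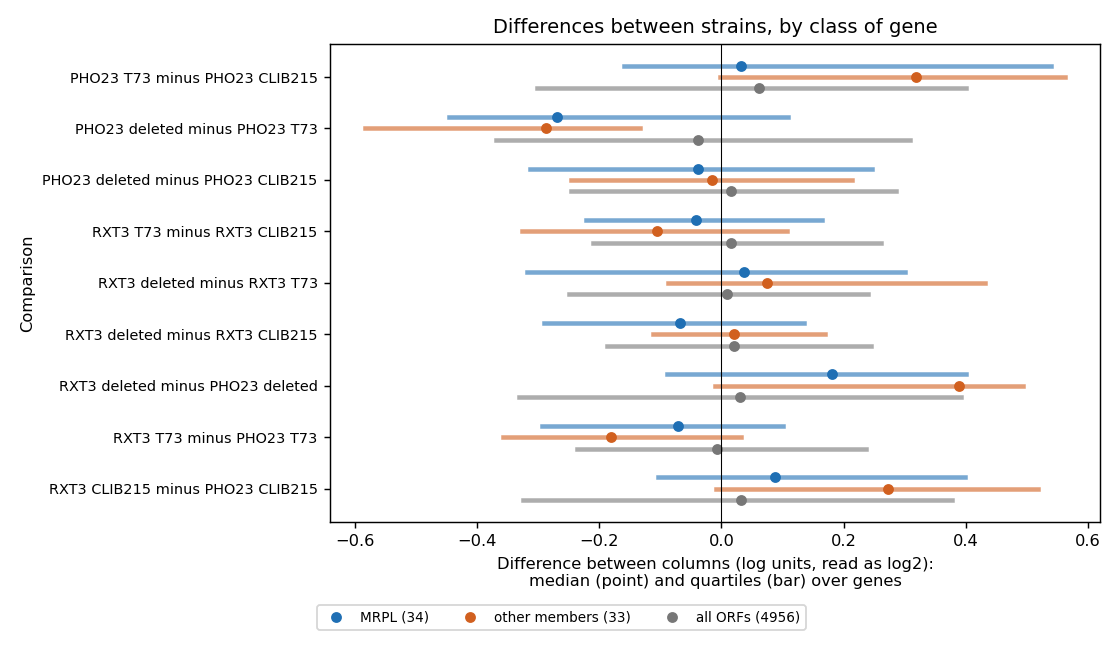
Median (point) and quartiles (bar) over genes of the 9 differences between columns, in log units read as log2, for MRPL genes (blue), the other members (orange) and all ORFs (grey). Both classes lie left of all ORFs for PHO23 deleted minus PHO23 T73 (−0.27 and −0.29 against −0.04), and the other members lie right of MRPL genes for PHO23 T73 minus PHO23 CLIB215 (0.32 against 0.03) and RXT3 deleted minus PHO23 deleted (0.39 against 0.18).

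Setting the same edit side by side at the 2 loci gave differences that follow from the same 6 columns and add no independent data. RXT3 deleted minus PHO23 deleted had a median of 0.29 over the members and 0.03 over all ORFs, with 46 of 67 above 0, where 52.4% of all ORFs were. The medians were 0.18 for MRPL and 0.39 for the others, and 0.41 for the 27 37S genes, of which 21 were above 0. MRP20 was the 1 member at least 1 unit higher, at 1.11, where 4.28% of all ORFs were, and none was that much lower, where 4.74% were. MRP10 at 0.98 and MRPL22 (uL22m, a protein that lines the peptide tunnel) at 0.95 came next, and MRPS9 at −0.91, MRPL3 at −0.69 and MRPL36 at −0.46 were lowest. The median became 0.044 under the genotype field's names, where MRPL minus the others was −0.037 in place of −0.21, and 0.19 with columns centred and scaled.

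For the T73 alleles, RXT3 T73 minus PHO23 T73 had a median of −0.11 over the members and −0.01 over all ORFs, with 43 of 67 below 0, where 50.8% of all ORFs were. MRPL genes had −0.07 and the others −0.18. RSM22 at −1.33 and MRP35 at −1.13 were at least 1 unit lower, where 1.01% of all ORFs were, and no member was that much higher, where 2.04% were. RSM25 at −0.98 followed, and MRP4 at 0.43, MRPL33 (uL30m) at 0.41 and MRPL7 (uL5m) at 0.41 were highest. For the CLIB215 alleles, RXT3 CLIB215 minus PHO23 CLIB215 had a median of 0.24 over the members and 0.03 over all ORFs, with 43 of 67 above 0, where 52.5% of all ORFs were. MRPL genes had 0.09 and the others 0.27. No member differed by 1 unit, where 4.42% of all ORFs were that much higher and 4.54% that much lower. MRP17 at 0.95, MRPS5 (uS5m) at 0.87 and MRP8 at 0.80 were highest, and MRPS8 at −0.55, MRPL32 at −0.53 and MRP7 (bL27m) at −0.41 lowest. Under the genotype field's names the medians of these T73 and CLIB215 comparisons were −0.044 and −0.038.

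Members past 1 unit were few in every comparison, and no comparison had more than 3. The members were on the whole less variable than the table: the range over the 6 columns had a median of 0.667 over the 67 members and 0.765 over all ORFs. For a single gene, the central 95% of all ORFs in the comparison with the smallest spread, RXT3 deleted minus RXT3 CLIB215, ran from −0.82 to 0.82. That interval holds real differences between those 2 strains as well as noise.

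The 5 members with the widest range were RSM25 (1.47), RSM22 (1.33), MRPS9 (1.24), MRP20 (1.16) and MRPL38 (1.15). RSM22 had 0.04, −0.58 and 0.31 in the RXT3 columns (deleted, T73, CLIB215) and 0.10, 0.75 and −0.28 in the PHO23 columns. It was highest in PHO23 T73 and lowest in RXT3 T73, the only one of the 5 with both extremes in T73 columns. The 5 with the narrowest range were MRP51 (0.160), MRPL23 (0.345), MRPL51 (0.351), MRPS17 (0.361) and MRPS16 (0.366). MRP51, the small-subunit protein bS1m, is known for its genetic link to the translation of the COX2 and COX3 messages. It had −0.04, −0.01 and 0.10 in the RXT3 columns and −0.02, 0.04 and −0.06 in the PHO23 columns, so none of its 6 values lay further than 0.10 from 0.

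**Figure D5:**
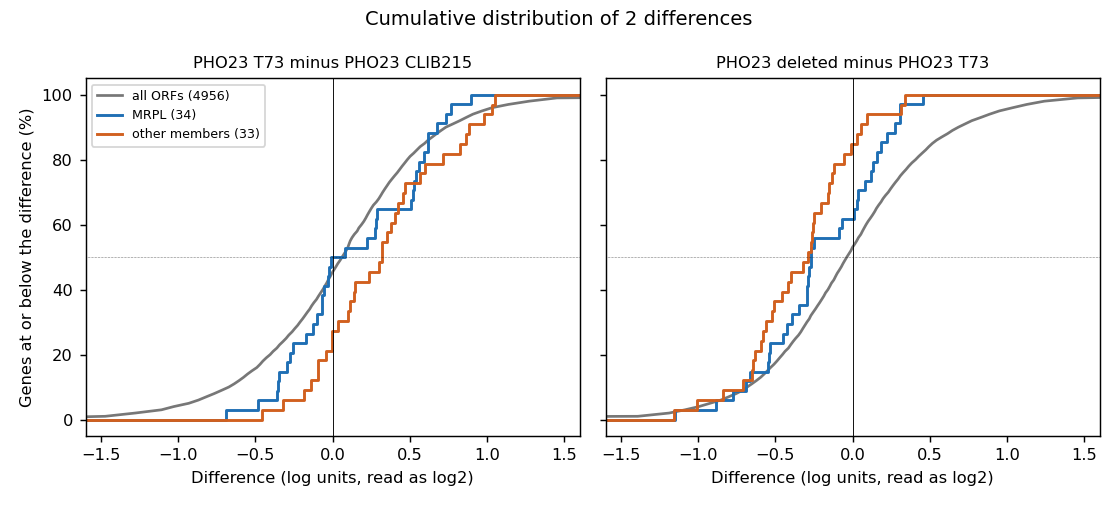
Cumulative share of genes (%) at or below each difference (log units, read as log2) for PHO23 T73 minus PHO23 CLIB215 (left) and PHO23 deleted minus PHO23 T73 (right). On the left the curve of the other members (orange) lies right of those of MRPL genes (blue) and all ORFs (grey) at the medians (0.32, 0.03 and 0.06). The curves of the 2 classes cross, as 12 of 34 MRPL genes and 9 of 33 others were at least 0.5 unit higher. On the right both classes lie left of all ORFs at their medians (−0.29, −0.27 and −0.04).

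The evolutionary type of the protein went with small differences in the medians. For PHO23 deleted minus PHO23 T73 the 27 genes of universal families had a median of −0.39, with 20 below 0, and included all 3 members at least 1 unit lower. The 14 genes of bacterial families had −0.27, with 11 below 0, and the 24 of mitochondrial families −0.21, with 16 below 0. Of all ORFs, 53.1% were below 0 in this comparison and 3.95% were at least 1 unit lower. For PHO23 T73 minus PHO23 CLIB215 the medians were 0.28, 0.19 and 0.04 in the same order. For RXT3 deleted minus RXT3 T73 they were −0.09, 0.00 and 0.20. Of the 24 genes of mitochondrial families 17 were above 0, where 51.1% of all ORFs were. These differences between types were not tested.

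MRPS12 (uS12m) and RSM19 (uS19m) are the 1 pair of members that are next to each other, on the minus strand of chromosome XIV with 229 bases between the coding regions. Their values differed most in the columns labelled as deletions. MRPS12 had 0.33 in RXT3 deleted and −0.33 in PHO23 deleted, whereas RSM19 had −0.12 and 0.10. Coding regions of 3 members overlap another annotated gene, MRP4 by 2 bases on the opposite strand, MRPL19 by 113 bases on the same strand and MRPL51 by 323 bases on the opposite strand. None of the 3 overlapping genes had values in all columns. How reads in overlaps were assigned is not given in the sources used here.

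Other genes with the Puf3 element had medians close to those of genes without it. For PHO23 deleted minus PHO23 T73, the 716 other genes that carry it had a median of −0.05 and the 4071 without it −0.03, against −0.27 in the members. The 188 other genes with the stricter form had −0.10. Within the members, the 52 with the stricter form had −0.28 and the 15 without it −0.27. For PHO23 T73 minus PHO23 CLIB215 the other genes with and without the element had medians of 0.04 and 0.06. The PUF3 transcript had 0.52 in PHO23 deleted, 0.25 in PHO23 T73 and −0.29 in PHO23 CLIB215, and −0.02, −0.04 and 0.01 in the RXT3 columns, so it varied among the PHO23 columns and hardly among the RXT3 columns. Its part in the members' values was not tested.

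The 12 other mitochondrial ribosomal proteins, whose names do not follow the rule, had values on both sides of 0 in the same comparison. Their median of PHO23 deleted minus PHO23 T73 was −0.0026, with 6 above and 6 below 0. All 12 carry the Puf3 element. PET123, a small-subunit protein, differed by −1.17 and RML2, the large-subunit protein uL2m, by −0.90, while EHD3 differed by 0.71 and SWS2 by 0.55. For PHO23 T73 minus PHO23 CLIB215 their median was 0.06, with RML2 at 1.03 and MHR1 at 0.50 highest and EHD3 at −0.39 and IMG2 at −0.36 lowest. IMG2, a large-subunit protein, was 1.04 higher in RXT3 T73 than in PHO23 T73.

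Other genes of mitochondrial translation gave mixed values. Of the translation factors, 9 had 6 values and 8 carry the Puf3 element. Their median of PHO23 deleted minus PHO23 T73 was −0.33, with 6 below 0 and 2 lower by at least 1 unit: MEF1, an elongation factor, at −1.34 and RRF1, the ribosome recycling factor, at −1.25. GUF1 at 0.38 and AIM23 at 0.37 were the highest. Of all ORFs, 53.1% were below 0 in this comparison and 3.95% were lower by at least 1 unit. For the 15 aminoacyl-tRNA synthetase and amidotransferase genes the median was −0.13, with SLM5 at −1.003 and PET112 at −0.98 lowest and DIA4 at 0.89 and MSW1 at 0.35 highest. Among 16 genes of ribosome assembly and rRNA maturation the median was −0.06, with 8 on each side of 0, from ATP25 at −1.23 and MTG2 at −1.09 to MRM2 at 0.84 and GEP3 at 0.35. Translational activators numbered 15, with a median of −0.17 and 11 below 0, from PET309 at −0.68 and CBP6 at −0.54 to CBS2 at 0.80 and CBP1 at 0.65. The list called mitochondrial transcription holds 6 genes, not all of which act in transcription itself. Its median was −0.16, from DSS1 at −0.56 and PET127 at −0.51 to RPO41 at 0.02 and MTF1 at −0.01.

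For PHO23 T73 minus PHO23 CLIB215 the same lists had medians from −0.19 (mitochondrial transcription) to 0.20 (assembly and rRNA maturation). The translation factors had 0.06, the synthetases 0.11 and the activators 0.03. Among the translation factors IFM1, the initiation factor, at 0.97 and RRF1 at 0.72 were highest, and GUF1 at −0.27 and MTQ1 at −0.13 lowest. The synthetase list ran from MSW1 at −1.29 and DIA4 at −1.11 to MSK1 at 0.63 and PET112 at 0.93. These aminoacyl-tRNA genes thus held the lowest values of the lists. The assembly list ran from MRM2 at −0.89 and MTG1 at −0.45 to GEP3 at 0.53 and MTG2, an assembly GTPase, at 1.22. Activators ran from CBS2 at −0.83 and AEP1 at −0.49 to PET494 at 0.45 and CBP6 at 0.49. The list called mitochondrial transcription ran from MTF1 at −0.44 and RPO41 at −0.37 to PET127 at −0.08 and ABF2, which packages mitochondrial DNA, at 0.66. Of 11 regulators, none of which carries a Puf3 element, HAP1 differed by 1.40 and HAP2 by 1.37, while HAP5 differed by −0.44 and SNF1 by −0.35. HAP4, the limiting subunit of the Hap complex, differed by −0.01. In PHO23 deleted minus PHO23 T73 HAP1 had −1.09 and ROX1 −0.59, and MOT3 had 0.66 and HAP5 0.44.

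The genes of the cytosolic ribosome had medians of the opposite sign in both comparisons of PHO23 T73 with another PHO23 column, which share that column. For PHO23 deleted minus PHO23 T73 the 82 large-subunit genes of the cytosolic ribosome had a median of 0.31, with 79 above 0, and the 56 small-subunit genes 0.31, with 55 above 0, against −0.27 in the mitochondrial group. For PHO23 T73 minus PHO23 CLIB215 the medians were −0.41, with 80 of 82 below 0, and −0.44, with 53 of 56 below 0, against 0.24. The Puf3 element stood at 4 of the 82 and 2 of the 56 cytosolic genes. The signs were also opposite for RXT3 deleted minus PHO23 deleted (−0.30 and −0.32, against 0.29) and for RXT3 CLIB215 minus PHO23 CLIB215 (−0.34 and −0.34, against 0.24). They were the same for PHO23 deleted minus PHO23 CLIB215 (−0.05 and −0.08, against −0.04), for RXT3 T73 minus RXT3 CLIB215 (−0.06 and −0.09, against −0.07) and for RXT3 deleted minus RXT3 T73 (0.05 and 0.06, against 0.04). For RXT3 deleted minus RXT3 CLIB215 all medians were near 0 and opposite in sign (−0.02 and −0.04, against 0.0018). For RXT3 T73 minus PHO23 T73 the 2 cytosolic subunits differed in sign (0.005 and −0.016, against −0.11). In the first 2 comparisons of this paragraph nearly all cytosolic genes had the sign of their median, while 18 and 26 of the 67 mitochondrial ones had the other sign.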

How the data were processed

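The authors deposited 1 table of log values, read here as log2, with 1 column per group and no replicate number. Per the labels' protocols, polyadenylated fragments were pulled down with poly-dT beads and reverse transcribed with barcoded primers holding molecular identifiers. The submitters' processing notes name Bowtie and genome build R64. For gene counting, normalization, centring and the minimum for a value, the method was not given in the sources used here.

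Of 6701 rows, 51 named no ORF, and 5962 of 6650 ORFs matched a RefSeq symbol. Differences were taken over the 4956 ORFs with 6 values, with Python 3.11.15, pandas 2.3.3 and numpy 2.4.6. Medians and counts of members past 1 log unit are given beside those of all ORFs. The calculation was tested on simulated data. A count model had been foreseen in case counts per library were held, and was not used. Sequences come from the RefSeq R64 genome. Named genes are members past 1 unit, otherwise the 3 highest and 3 lowest of a comparison, the 5 widest and 5 narrowest in range, and the 2 highest and 2 lowest of each list in the comparisons described. IMG2, PUF3, HAP4, MRPS12, RSM19, MRPL19, MRPL44, SOV1 and PET54 were named outside this rule, after their values were seen. The members, lists and sequence searches were chosen with earlier results of these data known. In the lists, MST1, VAR1, FMT1, PET122 and DMR1 lacked 6 values.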

Additional observations from a re-analysis of the deposited data

Results flagged for a closer look

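With columns named by title, the same exchange gave member medians of opposite sign at the 2 loci, in the third case with 1 of them close to 0. T73 minus CLIB215 had a member median of 0.24 at PHO23 and −0.068 at RXT3. Deleted minus T73 had −0.27 at PHO23 and 0.044 at RXT3. Deleted minus CLIB215 had −0.038 at PHO23 and 0.0018 at RXT3. The last value turned to −0.02029 with columns centred, −0.039 with columns centred and scaled, −4.4e-05 with members by known protein and −0.019 without the 3 overlapping genes, which is the sign of the PHO23 median. Under the genotype field's names the medians at PHO23 and RXT3 were 0.24 and 0.23 for T73 minus CLIB215, 0.057 and 0.29 for deleted minus CLIB215, and −0.11 and 0.0018 for deleted minus T73, so only the last pair differed in sign. With 1 pooled value per strain the difference between the loci was not tested, and 3 of the 6 columns carry another genotype in a second label field.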

How the results depend on the processing

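No paired analysis was possible because the table has 1 pooled value per group, so no replicate could be blocked or left out either. Restricting to ORFs with both values left all 18 medians and class differences as they were. This could not have come out otherwise, because all 67 members have 6 values. Other changes are given where they went beyond 1.5 times. Columns named by the genotype field left 2 of 18 results as they were, both for PHO23 T73 minus CLIB215. Under that naming the member medians were −0.11 (PHO23 deleted minus T73), 0.057 (PHO23 deleted minus CLIB215, reversed), 0.23 (RXT3 T73 minus CLIB215, reversed), 0.0018 (RXT3 deleted minus T73), 0.29 (RXT3 deleted minus CLIB215), 0.044 (RXT3 minus PHO23, deleted), −0.044 (RXT3 minus PHO23, T73) and −0.038 (RXT3 minus PHO23, CLIB215, reversed). MRPL minus rest was then 0.11, −0.092, −0.16 (reversed), −0.088, −0.21, −0.037, 0.17 and −0.023 in that order. Centring each column gave −0.066 for PHO23 deleted minus CLIB215 and −0.02029 (reversed) for RXT3 deleted minus CLIB215. Centring and scaling gave 0.12 (PHO23 T73 minus CLIB215), −0.11 (RXT3 T73 minus CLIB215), −0.039 (RXT3 deleted minus CLIB215, reversed), 0.19 (RXT3 minus PHO23, deleted) and 0.15 (RXT3 minus PHO23, CLIB215), and MRPL minus rest of 0.041 (PHO23 deleted minus T73) and −0.11 (RXT3 minus PHO23, CLIB215). Members by known protein gave 0.14 (PHO23 T73 minus CLIB215), −0.014 (PHO23 deleted minus CLIB215) and −4.4e-05 (RXT3 deleted minus CLIB215, reversed). Classes by subunit gave class differences of 0.0097 (PHO23 deleted minus T73), −0.079 (RXT3 deleted minus T73) and 0.19 (RXT3 minus PHO23, T73). At 0.5 unit, 22, 20, 14, 7, 14, 10, 17, 8 and 18 of the 67 members passed in either direction. These are the 9 comparisons in the order of the plot of medians. Of all 4956 ORFs, 946, 780, 636, 561, 504, 488, 953, 539 and 930 were that much higher in the same order. That much lower were 771, 870, 535, 403, 565, 400, 820, 467 and 806 ORFs. Chosen after seeing the data, classes by RefSeq product gave 0.00074 (PHO23 deleted minus T73), 0.17 (RXT3 minus PHO23, T73) and −0.094 (RXT3 minus PHO23, CLIB215), and leaving out the 3 overlapping genes gave 0.072 (RXT3 deleted minus T73) and −0.019 (RXT3 deleted minus CLIB215, reversed). The Puf3 element was at 60 members (89.6%) and 10.6% of other genes within 100 bases, and at 65 members and 17.1% within 300. The cause of these changes was not tested. Depth is unknown, and it limits how firmly any single gene can be read.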
